A study of Mus musculus with 12 samples.

Results

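The AF4 family genes Aff1, Aff2, Aff3 and Aff4 and the zinc-finger homeobox (ZFHX) family genes Zfhx2, Zfhx3 and Zfhx4 were followed in cultured dorsal root ganglion (DRG) neurons. The 7 genes were taken by symbol from the 2 tables of read counts, one per genotype, and all 7 are among the 9112 genes that both tables list, of 14177 genes listed in either. They were chosen from their pull-down and input values in both genotypes, so pull-down and input values, and any call of a fit on them, are given as a description and support nothing. All 7 genes passed the filter on low values (a mean FPKM above 1) in both tables.

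RiboTag mice carry an HA epitope on the ribosomal protein Rpl22 that Cre recombinase switches on, so that RNA bound to ribosomes of Cre-expressing cells can be isolated with an HA antibody. The cultures labelled Cre+ were Rpl22HA/HA Runx3-Cre+, with Cre driven by Runx3, a gene of proprioceptive neurons, and those labelled Cre- were Rpl22HA/HA Runx3-Cre-, which share the tagged allele but have no Cre to switch it on. Mice were male and 3 to 6 months old according to the labels, neurons of 5 mice were pooled per sample, and cultures were kept for 24 h. RNA of the HA pull-down and of 10% of the lysate (input, the total RNA) was sequenced from 3 samples per genotype, 12 libraries in all. The replicate numbers of the Cre+ libraries are those of the table's columns and were not tied to the samples' own numbers.

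AF4 proteins are nuclear scaffolds. Aff1 and Aff4 hold the super elongation complex together, in which the kinase complex P-TEFb releases RNA polymerase II that has paused near the start of a gene. Aff2 is the FMR2 gene of a form of X-linked intellectual disability, and Aff3, also called LAF4, is a nuclear regulator with roles in lymphoid and neural cells. ZFHX proteins are very large transcription factors that carry many zinc fingers and several homeodomains and act in neuronal differentiation. Zfhx3 is also known as Atbf1, and human ZFHX2 has been linked to inherited insensitivity to pain.

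Short conserved stretches of coding sequence are shown to describe what the genes of each family share. The genes were taken by symbol, and these stretches had no part in that or in the counting. Each ZFHX gene was searched for a codon series of the homeodomain recognition helix. It encodes tryptophan, phenylalanine, glutamine or lysine, asparagine, any residue and arginine. The series matched 3 times in each gene, which is not a count of homeodomains. The stretch of 30 bases around the last match follows 5′ to 3′ on the coding strand, with the first 4 codons of the series in capitals (GENCODE M21 transcripts, GRCm38).
Zfhx2, chr14:55064193-55064222, minus strand: attcaggtcTGGTTCCAGAATgcccgtgcc
Zfhx3, chr8:108951311-108951340, plus strand: gttcaggtcTGGTTCCAGAATgcccgggcg
Zfhx4, chr3:5403601-5403630, plus strand: gtgcaggtgTGGTTTCAGAATgctagggca
AF4 proteins have no homeodomain. A stretch of 10 codons that encodes the same residues in all 4 AF4 genes is shown next, with the 20 of its 30 bases that are identical in all 4 in capitals.
Aff1, chr5:103784337-103784366, plus strand: CAgAAgCCcACgGCaTAtGTccGtCCcATG
Aff2, chrX:69545075-69545104, plus strand: CAaAAaCCaACtGCaTAtGTaaGgCCcATG
Aff3, chr1:38535065-38535094, minus strand: CAgAAaCCaACtGCcTAcGTgcGgCCaATG
Aff4, chr11:53372890-53372919, plus strand: CAgAAaCCcACtGCcTAtGTacGgCCcATG
Over the aligned coding sequences, pairs of AF4 genes encoded the same residue at 34.2% (Aff1 and Aff2) to 41.8% (Aff2 and Aff3) of positions. Zfhx3 and Zfhx4 were the closest pair of ZFHX genes with 60.4%, and Zfhx2 matched them at 44.3% and 43.9%.

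Of the 7 genes, 6 lie on autosomes and Aff2 lies on the X chromosome. On GRCm38, Aff1 spans 103692374 to 103855322 of chromosome 5, Aff2 69360294 to 69868037 of chromosome X, Aff3 38177326 to 38664955 of chromosome 1 and Aff4 53350833 to 53421830 of chromosome 11. Zfhx2 spans 55060262 to 55092324 of chromosome 14, Zfhx3 107942644 to 108961630 of chromosome 8 and Zfhx4 5218526 to 5415857 of chromosome 3. Of the exon bases of Zfhx2, 24.3% overlap the antisense genes Zfhx2os and Gm20687, and of those of Aff2, 1.06% overlap the antisense gene Gm14705. No source used here says whether strand was used in counting, so reads on these shared exon bases cannot be told apart by gene. The other 5 genes share no exon bases with another gene.

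Library totals over the listed genes were between 8886308 and 18633365 counts, and the 7 genes had between 491 counts (Aff2, Cre+ input 1) and 11547 counts (Zfhx3, Cre+ pull-down 1). Runx3, which drives Cre, was higher in the pull-down than in the input by a log2 fold change of 3.52 (standard error 0.43) in the libraries labelled Cre- and by 1.55 (standard error 0.87) in those labelled Cre+, and it was called in the former and not in the latter (FDR = 0.000236 and 0.309, edgeR quasi-likelihood test). The difference, Cre+ minus Cre-, was -1.92 (standard error 0.99) and was not called (FDR = 0.304, edgeR). Of 7 proprioceptor markers tested for this difference, Runx3 among them, 2 were called lower and 0 higher, and 3 had positive values. The 2 were Spp1 (-3.59, standard error 0.47, FDR = 0.0025) and Etv1 (-2.40, standard error 0.42, FDR = 0.0155, edgeR for both). Each direction between genotypes below refers to the libraries as labelled. The 12 pan-neuronal markers summed to between 22769 and 58073 normalized counts per library, against 1280 to 4301 for markers of satellite glia and Schwann cells.

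Expression is given as normalized counts, that is counts per 1000000 after TMM scaling, which was done separately for the 6 libraries of each genotype. Among the AF4 genes in the libraries labelled Cre+, Aff1 had 119, 124 and 134 normalized counts in the inputs and 750, 804 and 1067 in the pull-downs. Aff2 had 42.9, 72.5 and 79.0 in the inputs and 161, 168 and 170 in the pull-downs. Aff4 had 181, 341 and 356 in the inputs and 775, 714 and 765 in the pull-downs. For these 3 genes every pull-down was above every input. Aff3 had 58.3, 85.7 and 74.0 in the inputs and 81.9, 152 and 193 in the pull-downs, and its lowest pull-down was below its highest input. RNA amounts in bulk libraries do not show whether fewer cells of a type or less RNA per cell lies behind a lower value.

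All ZFHX genes had separate pull-down and input values in the libraries labelled Cre+. Zfhx2 had 50.9, 110 and 107 normalized counts in the inputs and 148, 200 and 252 in the pull-downs. Zfhx3 had 291, 300 and 277 in the inputs and 1282, 1068 and 1130 in the pull-downs. Zfhx4 had 47.8, 125 and 98.4 in the inputs and 346, 248 and 474 in the pull-downs. Pull-downs lay above inputs without overlap for 6 of the 7 genes, where 15.5% of all genes tested did so and 17.9% lay below. Input 1 was the lowest of the 3 Cre+ inputs for every one of the 7 genes but Zfhx3.

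**Figure D1:**
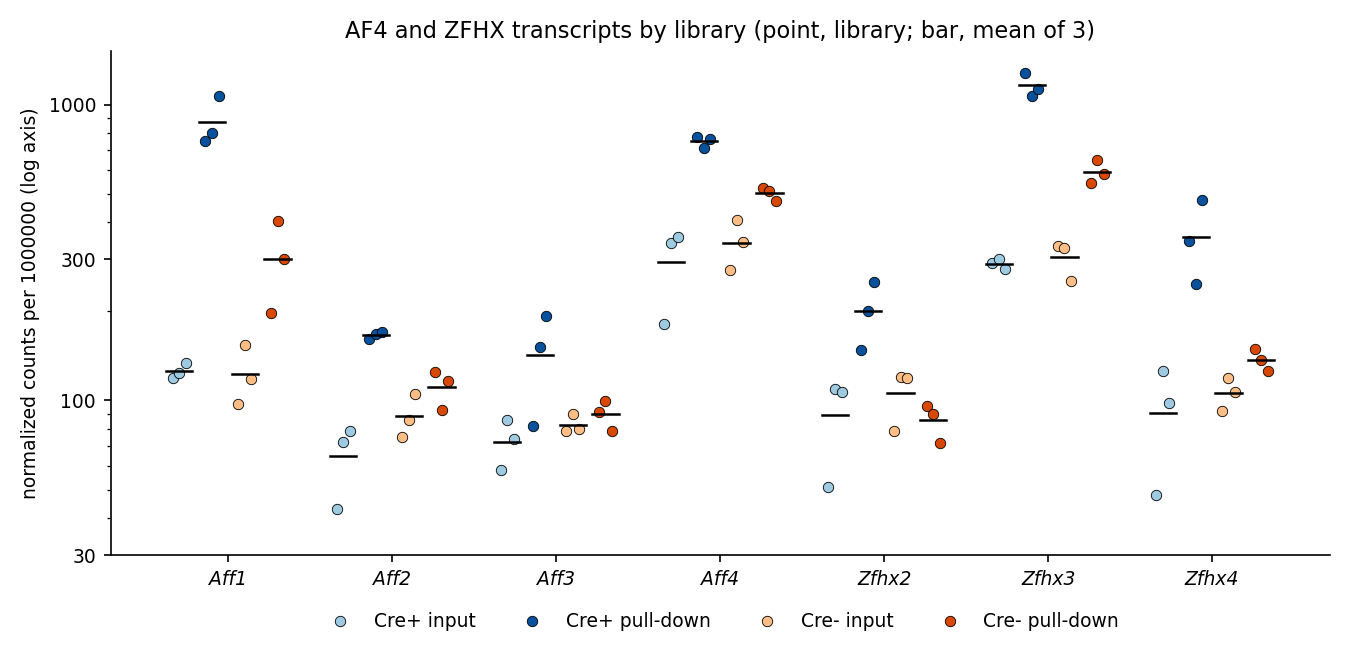
Normalized counts per 1000000 of each AF4 and ZFHX gene (log axis) in the 12 libraries, with points for libraries and bars for the mean of 3. The Cre+ pull-downs stand above their inputs for each gene but Aff3, whose lowest pull-down (81.9) is under its highest input (85.7).

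The same comparison gave smaller gaps in Cre-. Aff1 had 97.2, 154 and 118 normalized counts in the inputs and 198, 403 and 300 in the pull-downs. Aff4 had 275, 406 and 343 in the inputs and 523, 509 and 471 in the pull-downs. Pull-downs and inputs of both genes did not overlap, and the pull-downs of Aff4 were close to each other (SD 26.8) while those of Aff1 were spread (SD 102). Aff2 had 75.6, 86.0 and 105 in the inputs and 125, 92.7 and 116 in the pull-downs. Aff3 had 78.6, 89.7 and 80.0 in the inputs and 91.2, 99.2 and 78.8 in the pull-downs. The values of Aff2 and Aff3 overlapped between fractions.

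Of the ZFHX genes in the libraries labelled Cre-, Zfhx3 had 332, 328 and 254 normalized counts in the inputs and 545, 652 and 581 in the pull-downs. Zfhx4 had 92.1, 119 and 107 in the inputs and 149, 137 and 125 in the pull-downs. Every pull-down was above every input for Zfhx3 and Zfhx4, though the gap for Zfhx4 was narrow. Zfhx2 had 78.9, 120 and 119 in the inputs and 96.1, 89.8 and 71.7 in the pull-downs, which overlapped, with the lower mean in the pull-down. Among the 7 genes, 4 had pull-downs above inputs without overlap, beside 18.2% of all genes tested (18.6% lay below without overlap).

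Fitted with edgeR, Aff1 had the largest log2 fold change of pull-down over input of the 7 genes in the libraries labelled Cre+, 2.80 (standard error 0.26), or 6.96-fold. Zfhx3 followed with 2.0 (standard error 0.23) and Zfhx4 with 1.98 (standard error 0.41). Aff2 had 1.36 (standard error 0.34), Aff4 1.36 (standard error 0.30), Zfhx2 1.16 (standard error 0.38) and Aff3 0.97 (standard error 0.39). The median of the 7 genes was 1.36, beside 0.08 over all 8947 genes tested. Aff1 ranked at percentile 98.8 of all genes and Aff3 at 79.6, the ends of the range for these genes. At an FDR below 0.1 and a change of at least 2-fold, 5 of the 7 genes were called higher in the pull-down, all but Aff3 and Zfhx2, where 4.72% of all genes were called higher and 2.19% lower. With scaling by library size alone Aff2 (0.92) and Aff4 (0.91) fell under the 2-fold limit. This contrast helped to choose the genes, so nothing is read from the share.

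The log2 fold changes in the libraries labelled Cre- were 1.29 for Aff1 (standard error 0.25), 0.96 for Zfhx3 (standard error 0.16), 0.55 for Aff4 (standard error 0.16) and 0.37 for Zfhx4 (standard error 0.17). Those of Aff2 and Aff3 were 0.32 (standard error 0.19) and 0.12 (standard error 0.17), the latter -0.12 when libraries were scaled by size alone. Zfhx2 had -0.31 (standard error 0.21), the only negative value among the 7 genes in either genotype. The median was 0.37, beside -0.04 over all 11526 genes tested. Aff1 alone was called, 1 of 7, where 6.01% of all genes were called higher. Zfhx3 was 1.94-fold higher in the pull-down, just under the 2-fold limit.

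**Figure D2:**
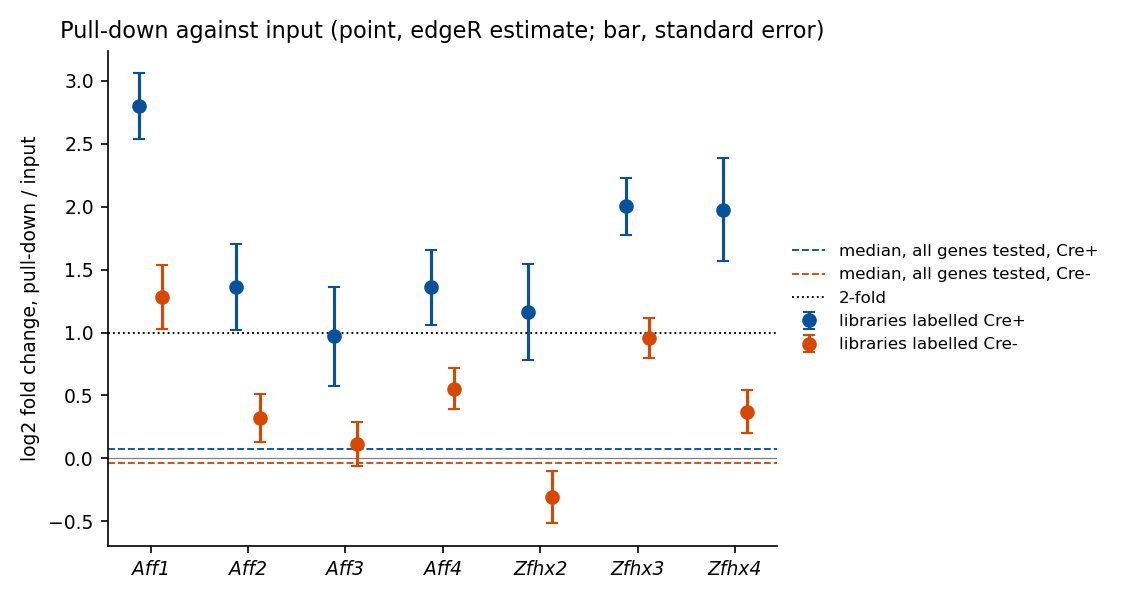
The log2 fold change of pull-down over input for each gene in both genotypes, with standard errors, the median of all genes tested (dashed) and the 2-fold limit (dotted). Each gene has its higher value in the libraries labelled Cre+, from 0.97 to 2.80 against -0.31 to 1.29.

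The difference between both log2 fold changes, Cre+ minus Cre-, was taken from a fit of all 12 libraries and was positive for all 7 genes. It was 1.64 (standard error 0.45) for Zfhx4, 1.56 (standard error 0.37) for Aff1 and 1.52 (standard error 0.45) for Zfhx2. Zfhx3 and Aff2 both had 1.08, with standard errors of 0.24 and 0.38. Aff3 had 0.90 (standard error 0.43) and Aff4 0.85 (standard error 0.34). The median of the 7 genes was 1.08, beside 0.13 over 8830 genes. The call was passed by 4 of the 7 genes, Aff1, Zfhx2, Zfhx3 and Zfhx4, where 2.58% of all genes were called higher and 2.1% lower, and it too rests on the contrasts that chose the genes. Only 1 of these calls was left with library-size or upper-quartile scaling (Aff1) or at an FDR below 0.05 (Zfhx3), and Zfhx2 lay at the limit with an FDR of 0.0999 (edgeR).

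Scaled together, the pull-downs labelled Cre+ were above those labelled Cre- without overlap for 6 of the 7 genes, beside 13.6% of all genes. For Zfhx3 the Cre+ pull-downs had 1133 to 1326 normalized counts and the Cre- pull-downs 530 to 629. Aff1 had 776 to 1127 against 193 to 389. Aff3, whose RNA is the least enriched of the 7 in the libraries labelled Cre+, overlapped with 84.7 to 204 and 76.4 to 95.9.

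Some of these values rest on single libraries. Without Cre+ input replicate 1, in which most of the 7 genes were low, the log2 fold changes in the libraries labelled Cre+ were 1.67 for Zfhx4, 1.14 for Aff2, 1.11 for Aff4 and 0.88 for Zfhx2, against 2.76 for Aff1 and 2.01 for Zfhx3. Of the 7 genes, Aff1 and Zfhx3 were then called. Aff1 alone was called without Cre+ input replicate 3, although Zfhx3 (1.97), Zfhx4 (2.04), Aff2 (1.53) and Aff4 (1.53) kept their log2 fold changes. Without Cre+ input replicate 2 the calls of Aff2 (1.45) and Aff4 (1.48) were lost, and 3 genes were called. Over all genes, those called higher went from 422 to 7, 59 and 4 without Cre+ input replicate 1, 2 or 3. Without Cre+ pull-down replicate 1 all 7 genes were called, Aff3 with 1.29 and Zfhx2 with 1.38, in a fit that called 803 of all genes higher. Each of the 6 fits without 1 library kept a positive sign for all 7 genes, Aff1 between 2.66 and 2.94 and Zfhx3 between 1.96 and 2.08. For the difference, 0 of the 7 genes were called if Cre+ input replicate 3, Cre- input replicate 2 or Cre- pull-down replicate 3 was left out, and 6 if Cre+ pull-down replicate 1 was. Over all genes, higher calls for the difference went from 228 to between 15 and 712 when 1 library was left out.

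The inputs of both genotypes were also compared with each other, to ask whether total RNA of the 7 genes differed. The choice of genes did not use this contrast, but the same input values entered the contrasts it did use. No difference was called for any of them (edgeR quasi-likelihood test, adjusted p = 0.999 or more). Scaled over the 6 inputs, Aff2 had 75.5 ± 22.1 normalized counts (SD, n = 3) in those labelled Cre+ and 98.3 ± 16.1 in those labelled Cre-. Its log2 difference of -0.38 (95% interval -0.92 to 0.16) was the largest of the 7 genes, and went from -0.16 without Cre+ input replicate 1 to -0.53 without Cre+ input replicate 3. Aff1 had 146 ± 7.24 and 136 ± 31.4, a difference of 0.10 (95% interval -0.33 to 0.53). Zfhx3 had 337 ± 16.3 and 337 ± 49.7, a difference within 0.36 in either direction by its 95% interval. Zfhx2 (-0.18, -0.82 to 0.46), Zfhx4 (-0.15, -0.81 to 0.51), Aff4 (-0.15, -0.71 to 0.41) and Aff3 (-0.11, -0.54 to 0.32) had intervals that span 0. All 7 intervals lay inside a 2-fold change in either direction, and differences smaller than these intervals were not detectable with 3 samples per group.

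**Figure D3:**
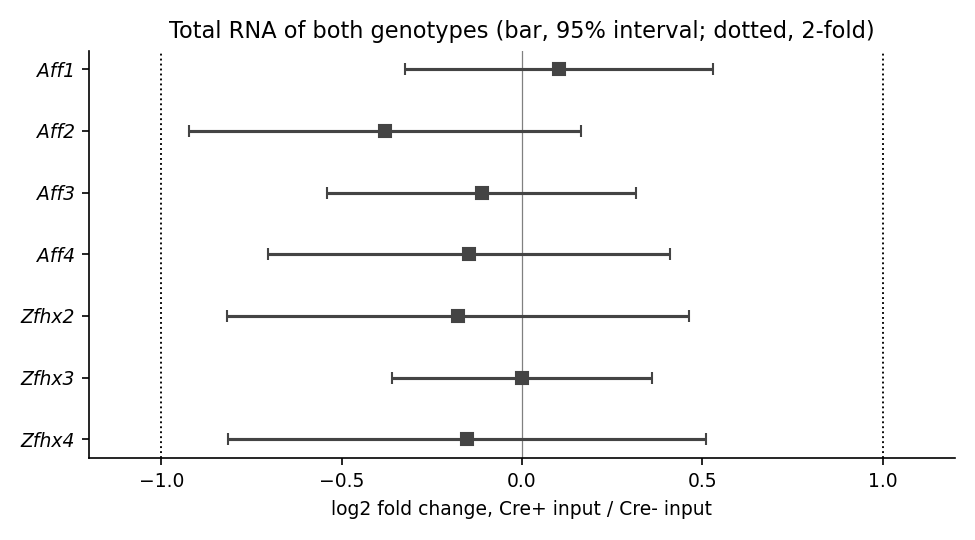
The log2 difference in total RNA between the inputs labelled Cre+ and Cre- for each gene, with 95% intervals and the 2-fold limits (dotted). Every interval spans 0, the lowest bound being -0.92 for Aff2 and the highest 0.53 for Aff1.

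Over all genes, 0 of 8830 were called between the inputs (0% called, 174 with an unadjusted p under 0.05), and DESeq2 called 1. None of the 7 genes had an unadjusted p under 0.05, the lowest being 0.150 for Aff2. Without Cre+ input replicate 1 the differences of Aff3, Aff4, Zfhx2 and Zfhx4 turned positive, to 0.02, 0.10, 0.10 and 0.15. Each sample pools several mice, and the p-values measure the spread between such pooled samples.

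Levels of different genes were compared per kilobase of transcript, since long transcripts collect more reads. In the inputs labelled Cre+, Aff4 was highest with 29.0 ± 9.58 normalized counts per kilobase (SD, n = 3). Zfhx3 followed with 17.6 ± 0.69, Aff1 with 15.1 ± 0.88, Aff2 with 14.3 ± 4.26 and Aff3 with 12.1 ± 2.29. Zfhx2 had 8.57 ± 3.19 and Zfhx4 6.52 ± 2.84. Of the neighbours in this order, only Zfhx3 and Aff1 had separate ranges, the other neighbours overlapped. The inputs labelled Cre- had the same genes at both ends, Aff4 with 33.8 ± 6.47 and Zfhx4 with 7.64 ± 0.97 per kilobase, with Aff2 (19.6 ± 3.28) ahead of Zfhx3 (18.5 ± 2.69).

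In the pull-downs labelled Cre+ the order per kilobase was led by Aff1, with 105 ± 20.4 normalized counts per kilobase, ahead of Aff4 with 74.4 ± 3.22 and Zfhx3 with 70.6 ± 6.69. Aff1 was separate from Aff4, while the ranges of Aff4 and Zfhx3 overlapped. Aff2 had 36.8 ± 1.05, separate from Zfhx3 above it and from Zfhx4 with 25.7 ± 8.17 below it. Zfhx4, Aff3 (23.7 ± 9.37) and Zfhx2 (19.2 ± 4.98) overlapped. The pull-downs labelled Cre- were led by Aff4 with 49.6 ± 2.65, ahead of Aff1 with 36.1 ± 12.3 and Zfhx3 with 36.1 ± 3.31, and ended with Zfhx4 (9.89 ± 0.87) and Zfhx2 (8.26 ± 1.22). By its group mean, Zfhx2 was thus the lowest of the 7 genes per kilobase in the pull-downs of both genotypes, though not in the inputs. In single libraries, Aff3 was lower in Cre+ pull-down 1 (13.6 against 14.2) and Zfhx4 in Cre+ pull-down 2 (17.9 against 19.2).

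Replicate spread differed between genes. In the pull-downs labelled Cre+, Aff2 and Aff4 had coefficients of variation of 2.85% and 4.33%, whereas Aff3 had 39.5% and Zfhx4 31.8%. In the inputs labelled Cre+ the smallest were those of Zfhx3 (3.92%) and Aff1 (5.80%) and the largest that of Zfhx4 (43.6%). Among the Cre- libraries no gene exceeded 34.1%, the value of Aff1 in the pull-downs.

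All 7 genes have long transcripts. Length is not independent of their choice, since the enrichment that chose them moved with length over all genes. Transcript length was 4.52 kb for Aff2, 6.01 kb for Aff3, 8.32 kb for Aff1, 10.1 kb for Aff4, 10.4 kb for Zfhx2, 13.9 kb for Zfhx4 and 16.4 kb for Zfhx3. Aff2 was at length percentile 75.5 and Zfhx3 at 99.8 of all genes with a known length. Coding sequence made up 34.5% of the Aff4 transcript and 43.9% of that of Aff1, against 84.4% for Aff2, 77.4% for Zfhx4, 73.9% for Zfhx2 and 68.0% for Zfhx3. GC content was not shared, from 44.5% in Aff4 to 57.4% in Zfhx2.

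To describe this relation, genes were put into 10 bins of equal size by length. The median log2 fold change in Cre+ went from -0.97 in the shortest bin to 1.12 in the longest, and 28.2% of the longest bin were called higher. In Cre- it went from -0.47 to 0.44, with 17.4% of the longest bin called. The difference Cre+ minus Cre- went from -0.41 to 0.65. The part of length in the values of the 7 genes was not tested, but each gene can be set beside genes of its own length. Among genes of the same bin in the libraries labelled Cre+, Aff1 was at percentile 96.2, Aff2 at 90.7, Zfhx3 at 84.8 and Zfhx4 at 84.3. Aff3 was at 66.6, Aff4 at 61.6 and Zfhx2 at 52.6. Zfhx2 exceeded the median of its bin by 0.05 on the log2 scale and Aff1 by 1.68.

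**Figure D4:**
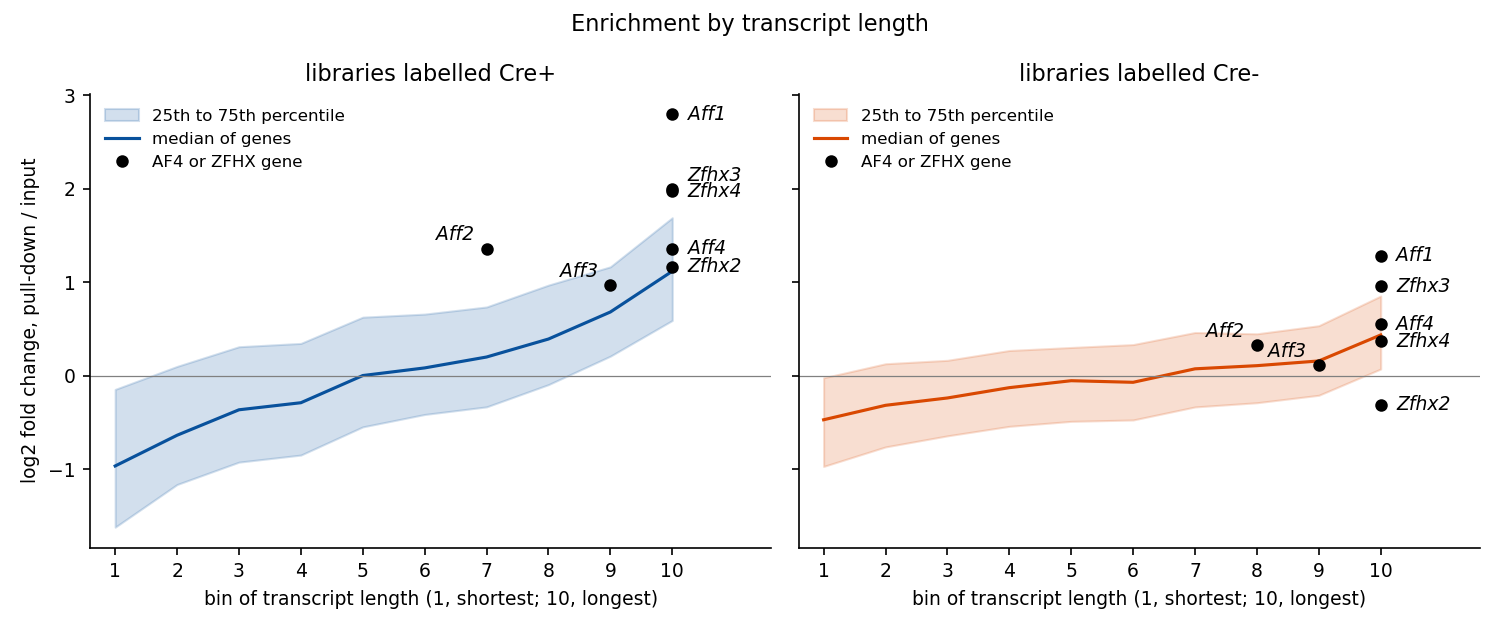
The log2 fold change of pull-down over input by bin of transcript length, with the median and the middle part (25th to 75th percentile) of all genes and the 7 genes as points. In the libraries labelled Cre+ the median climbs from -0.97 to 1.12, and Aff4 and Zfhx2 lie near the median of the longest bin while Aff1 lies far above it.

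For Cre-, the same comparison within a bin placed Aff1 at percentile 90.6, Zfhx3 at 79.9, Aff2 at 66.8 and Aff4 at 58.2. Aff3 and Zfhx4 were at 46.2 and 45.2, and Zfhx2 was at 10.1, 0.74 under the median of its bin on the log2 scale. For the difference Cre+ minus Cre-, Zfhx4 (89.4), Aff1 (87.6), Zfhx2 (87.1) and Aff2 (80.0) were at the higher percentiles of their bins and Aff4 (60.6) at the lowest of the 7 genes. Between inputs the median went from 0.26 in the shortest bin to -0.07 in the longest.

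The antisense gene Zfhx2os, whose exons overlap Zfhx2, had 80, 617 and 575 counts in the Cre+ inputs and 74, 615 and 547 in the Cre+ pull-downs. Library 1 of both fractions was thus far lower than the others, and Zfhx2 itself was lowest in library 1 of both fractions. The Cre- libraries had 348, 458 and 451 counts in the inputs and 463, 381 and 364 in the pull-downs. Zfhx2os had log2 fold changes of 0.83 (standard error 0.85, Cre+) and -0.43 (standard error 0.22, Cre-), beside 1.16 and -0.31 for Zfhx2. Its part in the Zfhx2 counts was not tested.

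The partners of AF4 proteins were read from a list of 16 genes of the super elongation complex and P-TEFb, of which 14 were tested in each genotype. None was called in either genotype by edgeR, where 4 of the 14 were higher in the libraries labelled Cre+ at an unadjusted p under 0.05 (14% of all genes) and DESeq2 called 3 (12.3% of all genes). For Cre-, 1 was higher and 2 lower at that unadjusted p (16.1% and 15% of all genes), and DESeq2 called 0. With edgeR, 1 was called higher without Cre+ pull-down replicate 1 or 2 (803 and 654 of all genes). Without Cre- pull-down replicate 1, 1 was called lower (1060 of all genes). The difference, Cre+ minus Cre-, was called for 0 of 14 (2.58% of all genes higher), but for 3 by DESeq2 or without any 1 Cre+ pull-down. Without Cre+ pull-down replicate 2, it was called higher for 712 of all genes. The median log2 fold change of the list was 0.70 in Cre+ (0.08 over all genes) and -0.09 in Cre-. Dot1l, a histone methyltransferase, had 1.49 (standard error 0.64) and Mllt1, the YEATS-domain reader ENL, 1.44 (standard error 0.61) in the libraries labelled Cre+. Cdk9, the kinase of P-TEFb, had -0.90 (standard error 0.59) and Larp7, which holds P-TEFb in the inactive 7SK particle, -0.80 (standard error 0.60).

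For promoter-proximal pausing and general elongation, Cre+ had 15 of 16 genes tested and 0 called (edgeR, with 2 higher and 2 lower at an unadjusted p under 0.05, beside 14% and 9.55% of all genes, and 0 by DESeq2). Their median of -0.33 lay below that of all genes. Paf1, the founding subunit of the PAF1 complex, had 1.02 (standard error 0.45) and Nelfa, a subunit of the negative elongation factor NELF, 0.88 (standard error 0.68). The NELF subunit Nelfb had -1.56 (standard error 0.68) and the PAF1 complex subunit Leo1 -1.24 (standard error 0.53). All 16 were tested in Cre-, with a median of -0.02. Tcea1, the elongation factor TFIIS, was lower in the pull-down there, with -1.14 on the log2 scale (standard error 0.24, FDR = 0.00729, edgeR), the only call of the list, beside 5.83% of all genes called lower. The call was lost without Cre- pull-down replicate 1. In Cre+, 1 gene of the list was called higher without Cre+ pull-down replicate 2, where 654 of all genes were. The difference, Cre+ minus Cre-, was called for 0 of 15, beside 2.58% of all genes higher and 2.1% lower. Without Cre+ pull-down replicate 3 it was called higher for 1 and lower for 2.

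Other zinc-finger homeobox genes formed a further list. The libraries labelled Cre+ had 10 of 11 such genes tested, all 10 with positive log2 fold changes, and 3 were called higher (4.72% of all genes). Their median was 0.83. Tshz3, a teashirt transcription factor, had 2.21 (standard error 0.57, FDR = 0.0761), from 15.4 ± 7.44 normalized counts in the inputs to 71.3 ± 28.8 in the pull-downs (SD, n = 3). Adnp, a chromatin-bound regulator of neural genes, had 1.5 (standard error 0.29, FDR = 0.0427) and Zeb2, a repressor of epithelial genes with roles in neural crest and glia, 1.05 (standard error 0.27, FDR = 0.0773, edgeR for each). Zhx2 had the lowest value, 0.43 (standard error 0.64), and Zhx1 followed with 0.47 (standard error 0.36). Leaving out any of the 3 Cre+ inputs ended all of these calls, in fits that called only 4 to 59 of all genes higher in place of 422. The count was 1 without Cre+ pull-down replicate 3 (320 of all genes) but 5 with Cre+ pull-down replicate 1 left out (803 of all genes).

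All 11 were tested in Cre-, with a median of -0.28, and 0 were called by edgeR or DESeq2 (2 higher and 2 lower at an unadjusted p under 0.05, beside 16.1% and 15% of all genes). The difference Cre+ minus Cre- had a median of 1.03 over 10 genes, beside 0.13 over all genes. It was called for Zeb2 (1.61, standard error 0.30, FDR = 0.0216) and Tshz1 (1.44, standard error 0.40, FDR = 0.0819, edgeR for both), where 2.58% of all genes were called higher. These 2 calls became 1 in each of the 6 fits without a Cre- library and in those without a Cre+ input, and 3 to 5 without a Cre+ pull-down.

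**Figure D5:**
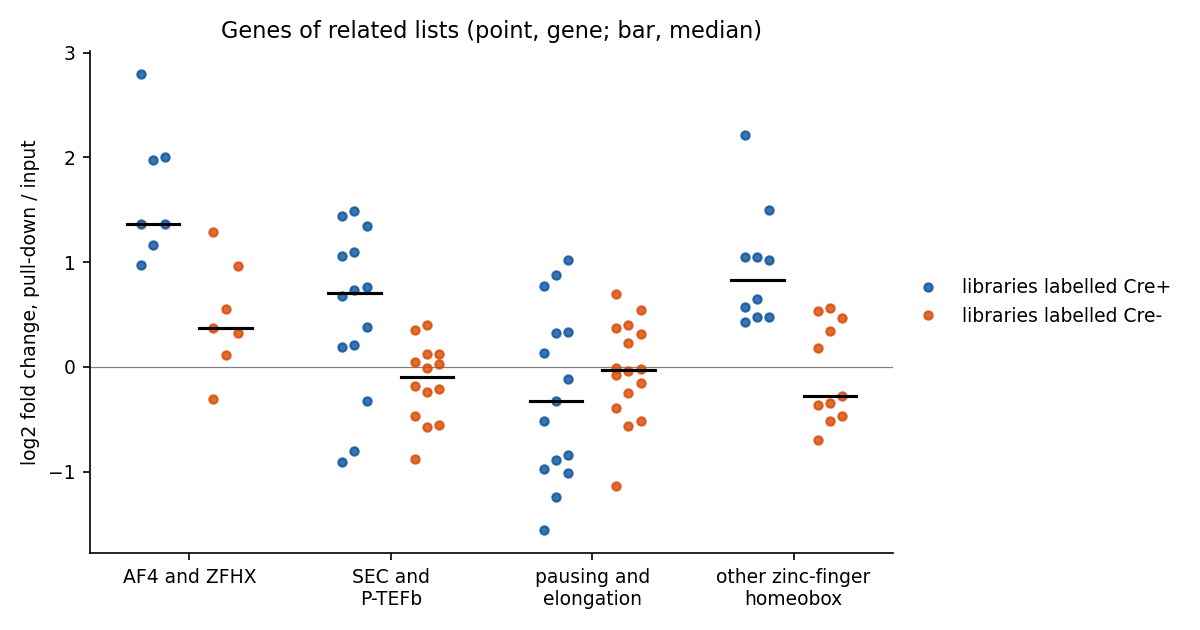
The log2 fold change of pull-down over input for the AF4 and ZFHX genes and for the genes of 3 related lists in both genotypes, with medians as bars. In the libraries labelled Cre+ the medians are 1.36, 0.70, -0.33 and 0.83 from left to right, and in those labelled Cre- 0.37, -0.09, -0.02 and -0.28.

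Markers of cell types were compared between the fractions as well. In the libraries labelled Cre+ the 6 endothelial markers had a median log2 fold change of 1.98 and 2 were called higher (Tek and Flt1, beside 4.72% of all genes), and their summed level was 99.2 to 118 normalized counts in the inputs and 129 to 793 in the pull-downs. None was called when any 1 of the Cre+ inputs or pull-down replicate 3 was left out, and 1 was without pull-down replicate 1. In Cre- their sum was 91.7 to 141 in the inputs and 24.9 to 186 in the pull-downs, and 0 of 5 tested were called (edgeR and DESeq2, 0 at an unadjusted p under 0.05), but 4 were called lower without Cre- pull-down replicate 1, a fit that raised the genes called lower from 672 to 1060 of all genes. Of 8 fibroblast markers, 6 were tested in each genotype, and Fn1 was called higher in the libraries labelled Cre+ (4.72% of all genes) and Col1a1 lower in those labelled Cre- (5.83%). The call of Fn1 was lost without any 1 of the Cre+ inputs or Cre+ pull-down replicate 2, and that of Col1a1 without Cre- input replicate 2 or Cre- pull-down replicate 2, while 5 were called lower in that fit without Cre- pull-down replicate 1. Their sum was 70.1 to 121 in the Cre+ inputs and 91.6 to 268 in the Cre+ pull-downs. For macrophage markers only 2 of 8 passed the filter in the Cre+ table, with sums of 25.8 to 68.2 in the inputs and 4.85 to 112 in the pull-downs. At least 1 Cre- library had a count of 0 for 2 glial markers and 1 macrophage marker.

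Glial markers summed to 2420 to 3707 normalized counts in the Cre+ inputs and 1669 to 2272 in the Cre+ pull-downs. Of 7 tested, 0 were called there by edgeR or DESeq2 (2 lower at an unadjusted p under 0.05, beside 9.55% of all genes). Without Cre+ pull-down replicate 1, 1 was called lower, in a fit that raised the genes called lower from 196 to 540 of all genes. In the libraries labelled Cre-, 3 of 9 tested were called lower (Fabp7, Apoe and Pmp22, beside 5.83% of all genes). The count was 2 without Cre- input replicate 2 or 3 and without Cre- pull-down replicate 2 or 3. It was 7 in the fit without Cre- pull-down replicate 1, which called 1060 of all genes lower in place of 672. The median of these 9 was -1.31 and only 1 was positive. This was S100b, named after its value was seen, with 0.69 (standard error 0.16, FDR = 0.0114, edgeR), under the 2-fold limit. In the libraries labelled Cre+ S100b had -0.99 (standard error 0.32) and was not called. Its difference, Cre+ minus Cre-, of -1.64 (standard error 0.35, FDR = 0.0373, edgeR) was called. That call was lost without Cre- input replicate 2 or 3 or Cre- pull-down replicate 3. Of 12 pan-neuronal markers, 3 were called lower (Tubb3, Uchl1 and Stmn2) and none higher in the libraries labelled Cre+. In those labelled Cre-, 3 were called higher (Nefm, Nefh and Snap25) and Gap43 lower, beside 6.01% and 5.83% of all genes. The 3 lower calls in Cre+, where 2.19% of all genes were called lower, became 0 without Cre+ input replicate 1 or 3 and 1 without Cre+ input replicate 2. Over all genes, 196 lower calls became 0, 15 and 0 without Cre+ input replicate 1, 2 or 3. Proprioceptor markers were called for 1 of 7 in the libraries labelled Cre+ and 7 of 8 in those labelled Cre-, beside 4.72% and 6.01% of all genes called higher, and the Cre+ call (Ntrk3) was lost without Cre+ input replicate 1 or 3. The difference, Cre+ minus Cre-, was called lower for 2 of 7 (Etv1 and Spp1, edgeR), where 2.1% of all genes were, and for 4 without Cre+ pull-down replicate 1. Of the pan-neuronal markers, Uchl1, Snap25 and Stmn2 were called lower for it. These 3 lower calls became 2 without any 1 input and without Cre- pull-down replicate 2 or 3. Rbfox3 was called higher (2.58% of all genes). That call was lost without any 1 input, and also without Cre+ pull-down replicate 2 or Cre- pull-down replicate 2 or 3. Median differences were 2.36 for endothelial, 1.35 for fibroblast, 0.98 for glial, 0.68 for macrophage, -0.77 for pan-neuronal and -1.64 for proprioceptor markers, beside 0.13 over all genes. The part of these cell types in the values of the 7 genes was not tested.

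Across the 12 libraries, scaled together, log2 normalized counts of the 7 genes correlated with Pearson's r from 0.63 (Zfhx2 and Zfhx3) to 0.97 (Aff1 and Zfhx3). The points share the libraries and the 4 groups, so these values describe the pattern. Aff2 and Aff4 had an r of 0.95, as had Aff4 and Zfhx4. The genes with the pattern most like Aff1 were Mbd5, a methyl-CpG-binding domain gene (0.98), the myosin Myo9a, the ubiquitin ligase Dzip3, the ankyrin Ank2 and Zfhx3 (0.97 each). Those most like Zfhx3 were Aff1, Adnp, Myo9a and the neuronal splicing factor Nova2 (0.97 each) and Mbd5 (0.96). Transcripts of these genes ranged from 3.33 kb (Dzip3) to 16.4 kb (Zfhx3).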

How the data were processed

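RNA of HA pull-downs and inputs was sequenced from cultures labelled Cre+ and Cre-, 3 libraries per group. The authors aligned reads to mm10 with STAR and deposited counts of read fragments per gene, made with HTSeq on the refSeq annotation from uniquely mapped reads, and the mean FPKM per table. The deposited tables also hold the authors' log2 fold changes, p-values and FDR, which were not used here. A further 18 columns with values per sample were left out. The lowest count in the Cre+ table is 5. Samples were grouped by their labels. The columns of Cre+ libraries were assigned as groups, since their table is the one given in the Cre+ labels while the names of the pull-down columns, punctuation aside, also read like titles of Cre- samples. An exchange of genotypes was not tested and would turn each direction between them.

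Counts were tested, for genes past a mean FPKM of 1, with edgeR 4.0.16 in R 4.3.3 (TMM, quasi-likelihood with robust moderation), without a replicate block, with Benjamini-Hochberg adjustment over all genes tested. Calls needed an FDR below 0.1 and a 2-fold change. A standard error is the size of the log2 fold change divided by the square root of F. The fits were tested on simulated counts with the same dispersion for every gene and no differences in quality between libraries. That test cannot show how stable the calls in these data are. Alternatives were DESeq2 1.42.0, other scalings and filters, FDR below 0.05, the exact test of edgeR, all 12 libraries fitted together, a replicate block, and each library left out. Robust moderation, and the fit without it as an alternative, were chosen after seeing the data (5 of the 7 genes were called in Cre+ by both). Transcripts and coordinates came from GENCODE M21 on GRCm38, with a length for 99.0% of genes. Aff3 was given its longest transcript and the other 6 genes the transcript matched to RefSeq. Of each list, the 2 highest and the 2 lowest genes in the libraries labelled Cre+ and the called genes are named, and for Aff1 and Zfhx3 the 5 most alike genes. For the marker lists only called genes are named, apart from S100b, which was called for the difference between genotypes but in neither genotype alone. The 7 genes and all lists were chosen with earlier results of these data known. PCR reads are not independent molecules. Figures were drawn with matplotlib 3.10.9.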

Additional observations from a re-analysis of the deposited data

Results flagged for a closer look

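In the fit of all 12 libraries, 4 of the 7 genes reached the limits of the call for the difference of enrichment between genotypes (edgeR), or 1 with library-size or upper-quartile scaling or at an FDR below 0.05. The log2 differences, Cre+ minus Cre-, were 1.56 for Aff1, 1.52 for Zfhx2, 1.08 for Zfhx3 and 1.64 for Zfhx4. The genes were chosen from the contrasts that make up this difference, so these values describe the libraries and are no test of the genes.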

How the results depend on the processing

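Called higher in the libraries labelled Cre+ were 5 of the 7 genes, 3 with library-size scaling, 3 at an FDR below 0.05, and 1 to 7 when a library was left out. For Cre-, 1 was called, and 1 to 2 without 1 library. For the difference 4 were called, 1 with library-size scaling, 1 with upper-quartile scaling, 1 at an FDR below 0.05 and 0 to 6 without 1 library. With edgeR, 0 were called between inputs in every setting, also by DESeq2. Library-size and upper-quartile scaling moved the median log2 fold change of all genes in the libraries labelled Cre+ from 0.08 to -0.36 and -0.12, library-size scaling that in the libraries labelled Cre- from -0.04 to -0.27, and both that of the difference from 0.13 to -0.12 and -0.05. Relative to these shifts the values of the 7 genes moved alike, and Aff3 in the libraries labelled Cre- turned to -0.12 with library-size scaling. Between inputs, Zfhx3 turned positive with DESeq2 (0.0014) and library-size scaling (0.0024), and without 1 library the ranges were -0.032 to 0.29 for Aff1, -0.53 to -0.16 for Aff2, -0.25 to 0.021 for Aff3, -0.29 to 0.10 for Aff4, -0.36 to 0.10 for Zfhx2, -0.12 to 0.077 for Zfhx3 and -0.47 to 0.15 for Zfhx4. Over all genes, 422 were called higher and 196 lower in the libraries labelled Cre+, against 1103 and 568 with DESeq2, 192 and 699 with library-size scaling, 249 and 266 with upper-quartile scaling, 139 and 26 at an FDR below 0.05, 786 and 457 with the exact test, 1240 and 932 with all 12 libraries in one fit, and 4 to 803 and 0 to 540 without 1 library. In the libraries labelled Cre- 693 and 672 were called, against 429 and 1238 with library-size scaling, 267 and 175 with all 12 libraries in one fit, and 575 to 817 and 525 to 1060 without 1 library. The difference was called for 228 and 185, against 615 and 420 with DESeq2, 75 and 282 with library-size scaling, 92 and 207 with upper-quartile scaling, 40 and 61 at an FDR below 0.05, and 15 to 712 and 31 to 693 without 1 library. The causes were not tested. A replicate block in the libraries labelled Cre- called 1 of the 7 genes (Aff1, 1.25), 704 genes higher and 792 lower. In the libraries labelled Cre+ a replicate block by column number, added after seeing the data, called 4 of the 7 genes (all of the 5 but Aff2, 1.41), 212 genes higher and 49 lower. Deviations of same-numbered libraries correlated with r of 0.07, 0.03 and 0.12 in Cre-, above those of differently numbered ones (-0.11 to 0.025). In Cre+ they correlated with -0.012, -0.0034 and 0.0090, within the range of differently numbered ones (-0.025 to 0.022). Each input was 10% of a lysate that also gave a pull-down, but the main fits did not take the numbers as pairs. These low correlations do not show that the libraries were unpaired.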
